A study of Mus musculus with 21 samples.

Results

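The collagen chain genes are the genes that encode the alpha chains of the collagens. They were taken from the deposited table as the rows annotated protein_coding whose gene name is Col, a type number, the letter a and a chain number. This gave 44 genes of 78317 rows, of which 21522 were protein_coding. By type number, 11 are fibrillar (types 1, 2, 3, 5, 11, 24 and 27), 9 belong to basement membranes (types 4, 7, 15 and 18) and 24 are of other types. Of these 44, 33 had a mean of at least 1 CPM in some group and are described with values: 10 fibrillar, 6 basement membrane and 17 other genes. RNA was sequenced from E14 mouse embryonic stem cells, an established line grown from an early mouse embryo and able to form all tissues. The 21 libraries fell into 7 groups of 3. The 3 groups named VB6 had been treated with 20 µM vitamin B6 as pyridoxine for 3, 5 or 7 days, the 3 vehicle groups had been cultured with vehicle for the same times, and the ES group was kept in standard culture without treatment. All groups share the E14 line and are whole cultures, so every level is an average over the cells present. The series title names endoderm differentiation, while the labels do not state the medium or how differentiation was started. Nothing in the labels ties the 3 libraries of any group to separate cultures. The p-values therefore measure the spread between libraries, which may be technical.

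Collagens are secreted proteins in which alpha chains wind into a triple helix. Fibrillar collagens form the banded fibrils of bone, tendon, skin and cartilage. Type 4 collagens build the sheet-like network of basement membranes, together with laminins, and are among the first matrix proteins that the mouse embryo lays down: parietal endoderm secretes large amounts of type 4 collagen into Reichert's membrane. The other types sit on fibrils, form beaded filaments or short networks, or span the cell membrane. Chains of one type are usually made together, because a trimer needs its partner chains in set proportions.

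Several chain genes lie beside each other in the mouse genome (build mm10, positions from GENCODE M21). Col4a1 (chr8:11198423-11312826, minus strand) and Col4a2 (chr8:11312805-11449287, plus strand) stand head to head with first exons that share 22 bases, so that each start site lies inside the first exon of the other gene. Col4a6 (chrX:141165403-141474076, minus strand) and Col4a5 (chrX:141475385-141689234, plus strand) are also head to head, with 1308 bases between them. Col4a4 and Col4a3 form another head-to-head pair, with 71 bases between them on chromosome 1. Col3a1 (chr1:45311538-45349706, plus strand) and Col5a2 lie tail to tail, and Col6a6, Col6a5 and Col6a4 follow each other on chromosome 9. A genomic stretch upstream of RefSeq's start site is printed for 4 members, because they had the largest fold changes of the fibrillar and basement membrane classes between days 5 and 7, in vehicle as in VB6: Col1a2, Col3a1, Col4a5 and Col4a6. Sequences are RefSeq's promoter windows on GRCm38.p6, the mm10 assembly, limited to the longest run within 250 bases of the start that lies in no annotated exon and given on the gene's strand. Capitals mark matches on either strand to the CCAAT box, the GC box with letters GGGCGG and the TATA box with letters TATAAA, and no 2 matches overlap in these stretches.
Col1a2: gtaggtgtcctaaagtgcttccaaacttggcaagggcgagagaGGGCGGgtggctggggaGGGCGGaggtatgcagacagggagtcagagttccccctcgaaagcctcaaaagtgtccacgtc
Col3a1: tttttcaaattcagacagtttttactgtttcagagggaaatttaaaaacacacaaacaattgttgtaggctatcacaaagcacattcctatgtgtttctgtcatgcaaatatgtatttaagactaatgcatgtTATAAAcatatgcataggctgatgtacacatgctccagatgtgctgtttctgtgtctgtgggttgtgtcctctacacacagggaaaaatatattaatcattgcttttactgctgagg
Col4a5: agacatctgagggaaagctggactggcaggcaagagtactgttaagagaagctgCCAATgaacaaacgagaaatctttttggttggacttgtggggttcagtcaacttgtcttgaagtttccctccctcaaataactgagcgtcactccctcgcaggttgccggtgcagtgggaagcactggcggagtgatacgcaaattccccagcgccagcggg
Col4a6: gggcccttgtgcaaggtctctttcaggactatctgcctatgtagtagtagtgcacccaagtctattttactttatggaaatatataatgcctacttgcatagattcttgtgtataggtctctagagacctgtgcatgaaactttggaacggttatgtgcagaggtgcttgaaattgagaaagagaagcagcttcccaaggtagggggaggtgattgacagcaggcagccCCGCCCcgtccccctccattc

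These stretches are chr6:4505370-4505492 (plus strand) for Col1a2, chr1:45311288-45311537 (plus) for Col3a1, chrX:141475169-141475384 (plus) for Col4a5 and chrX:141474077-141474326 (minus) for Col4a6. The GENCODE gene of Col1a2 starts further upstream, at position 4504814, so its printed stretch lies inside that gene, in no annotated exon, while the other 3 lie outside their genes. The Col1a2 stretch holds the GC box at 2 places and that of Col4a6 holds it once, on the other strand. The Col4a5 stretch has 1 CCAAT box and that of Col3a1 has 1 TATA box. The base composition differs as well, with 59.3% G and C before Col1a2, 52.3% before Col4a5, 47.6% before Col4a6 and 35.2% before Col3a1. Over the 250 bases before the start, the GC box on either strand occurred in 22 of 38 windows of collagen chain genes (57.9%) and in 32.7% of 32851 windows of all genes. The CCAAT box occurred in 34.2% of the collagen windows and 33.8% of all windows, and the TATA box in 13.2% and 12.4%. The 38 windows cover 35 of the 44 genes, some windows overlap, and a match describes letters, not a binding site.

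Levels are CPM, expected counts divided by the library's total and scaled by TMM, and compare 1 gene across libraries. Comparisons between genes use the deposited TPM, which is divided by transcript length. Each library held between 15882380 and 21629730 expected counts, and a count of 0 allows up to 3 counts, which is 0.139 to 0.189 CPM for counting error alone. Both VB6 day 7 and vehicle day 5 stood apart. Their fragment length, as the deposited values imply it, was 266 ± 7.77 nt in VB6 day 7 and 227 ± 8.69 nt in vehicle day 5 (SD, n = 3 each), while group means were 307 to 312 nt elsewhere. These 2 groups had the lowest share of ribosomal protein transcripts (3.28 ± 0.116% in VB6 day 7 and 3.37 ± 0.157% in vehicle day 5) and the highest share of mitochondrial ones. The short fragments fall on whole groups, so they and the group cannot be told apart. For comparisons that use these groups, totals of collagen chain genes called are given also after a correction for GC content and length per library. Summed levels, TPM shares and chain ratios have no such correction, and many fold changes of single genes are given only uncorrected. The part of fragment length in the results beyond that correction was not tested.

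The chains of basement membranes made up most of the collagen RNA in every group. Summed over the 9 genes, basement membrane collagens had a mean of 169 ± 26.8 TPM in ES cells (SD, n = 3), 861 ± 59.5 TPM in VB6 day 7 and 683 ± 97.0 TPM in vehicle day 7. The 11 fibrillar genes summed to 18.6 ± 2.70 TPM in ES cells, 265 ± 58.1 TPM in VB6 day 7 and 224 ± 40.0 TPM in vehicle day 7. The 24 other genes summed to 43.0 ± 6.40 TPM in ES cells, 37.0 ± 5.75 TPM in VB6 day 7 and 40.9 ± 6.37 TPM in vehicle day 7, with overlapping libraries. On the CPM scale the fibrillar sum in vehicle day 7 was 10.2 times that of ES cells, the basement membrane sum 4.60 times and the other sum 1.38 times. Of the 33 genes described, 11 had their highest mean in VB6 day 7, 11 in vehicle day 7, 7 in ES cells, 2 in VB6 day 5 and 2 in vehicle day 3. These are bulk samples, so fewer cells of a type and less RNA per cell cannot be told apart.

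**Figure D1:**
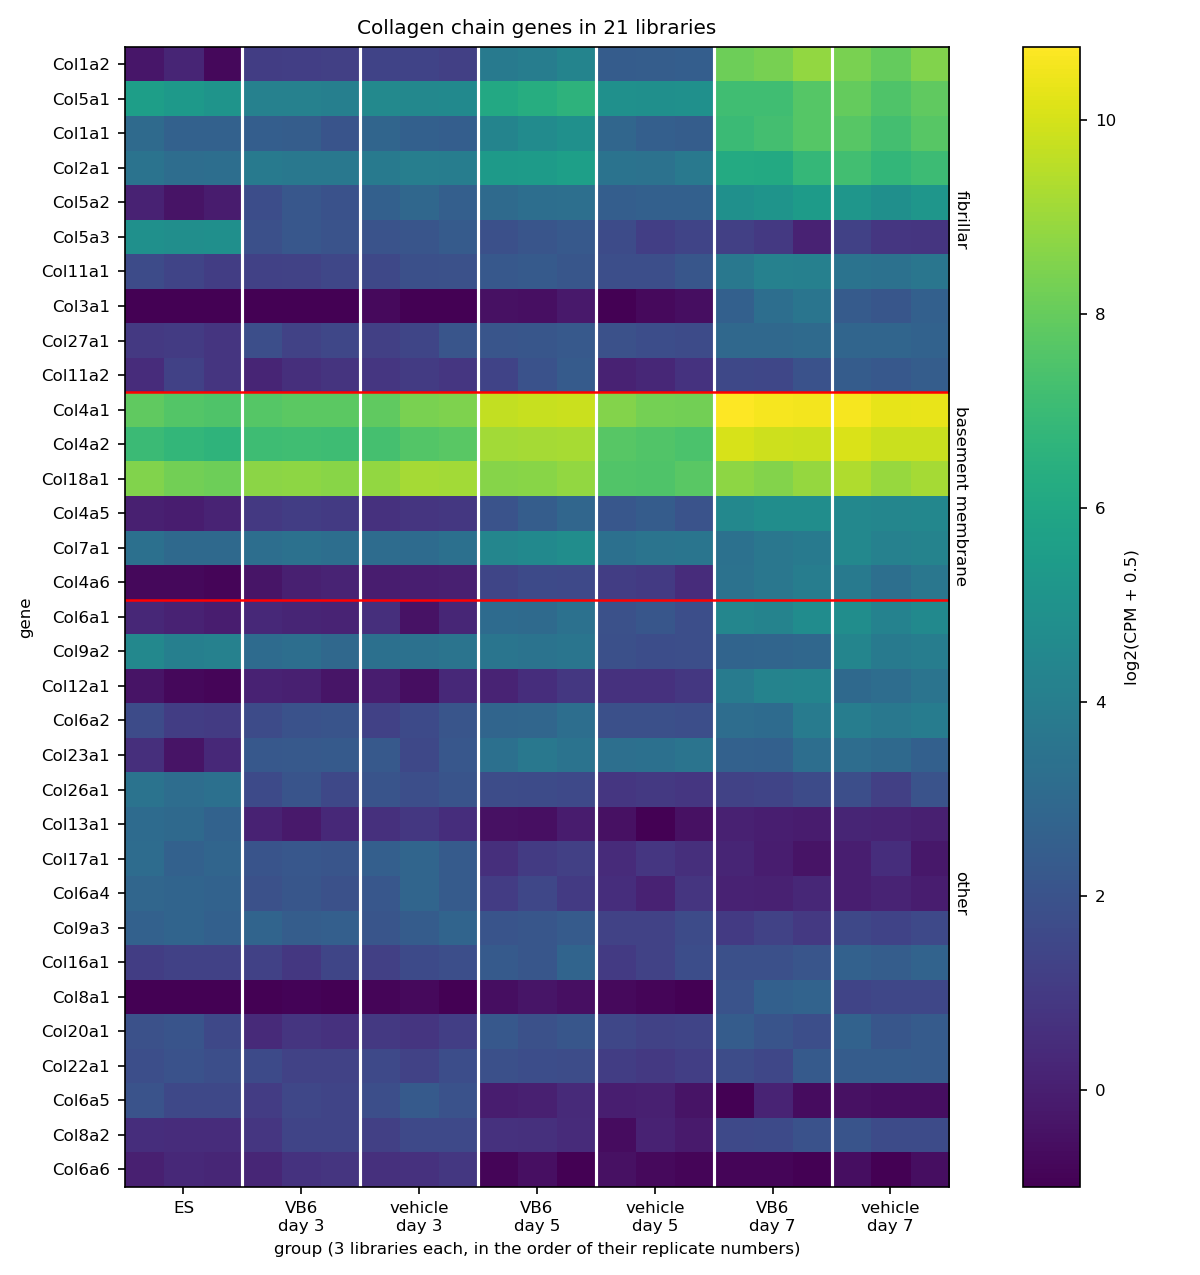
Level of the 33 described collagen chain genes in each of the 21 libraries, as log2(CPM + 0.5); rows are grouped by class (red lines) and columns by group (white lines). Col4a1, Col4a2 and Col18a1 are high in every library, the fibrillar genes Col1a1 and Col1a2 are brightest at day 7, and Col5a3, Col13a1 and Col26a1 are brightest in ES cells.

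The make-up of the collagen RNA shifted with time. Col18a1, whose product carries heparan sulfate chains and releases the fragment endostatin, held 41.5 ± 0.793% of all collagen TPM in ES cells (SD, n = 3), 52.5 ± 0.199% in VB6 day 3 and 51.5 ± 2.27% in vehicle day 3. Its share was 23.6 ± 0.775% in VB6 day 5, 27 ± 2.07% in vehicle day 5, 13.4 ± 0.616% in VB6 day 7 and 17.7 ± 0.494% in vehicle day 7. Col4a1 and Col4a2 together took 29.2 ± 2.32% in ES cells, 30.0 ± 1.12% in VB6 day 3 and 33.4 ± 2.94% in vehicle day 3, and at later days they held 59.6 ± 1.46% in VB6 day 5, 52.2 ± 3.86% in vehicle day 5, 58.7 ± 5.33% in VB6 day 7 and 52.5 ± 2.36% in vehicle day 7. Type 1 collagen, Col1a1 plus Col1a2, had 0.668 ± 0.0464% in ES cells, 1.97 ± 0.231% in VB6 day 5, 1.36 ± 0.15% in vehicle day 5, 14.2 ± 3.15% in VB6 day 7 and 13.9 ± 1.93% in vehicle day 7. The shares of VB6 and vehicle lay closer to each other within a day than the shares of day 3 and day 7 within a treatment, for each of these 3 entries.

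**Figure D2:**
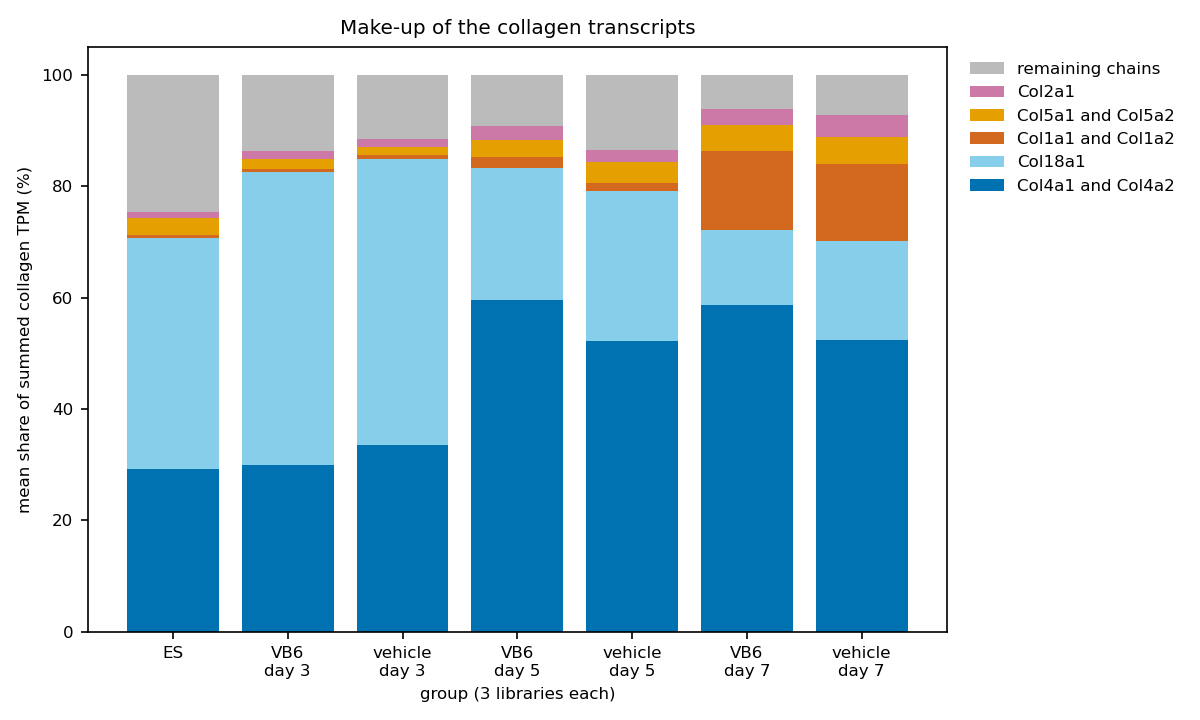
Mean share of the summed TPM of all 44 collagen chain genes taken by 5 named entries and the remaining chains, in percent, for each group of 3 libraries. Type 4 chains (dark blue) hold 29.2% in ES cells, 58.7% in VB6 day 7 and 52.5% in vehicle day 7, and type 1 chains (dark orange) hold 14.2% and 13.9% in the same day 7 groups.

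Among the basement membrane genes, Col4a1 and Col4a2 encode the chains of the common type 4 trimer. Col4a1 had 233, 197 and 179.7 CPM in ES, 204, 223 and 221 CPM in VB6 day 3, and 239, 330.3 and 353 CPM in vehicle day 3. At day 5 Col4a1 had 814, 862 and 892 CPM in VB6 and 381, 316 and 307 CPM in vehicle, and at day 7 1723, 1557 and 1479.5 CPM in VB6 and 1551, 1279.9 and 1315 CPM in vehicle. The ES and day 3 libraries lay below all later ones except that vehicle day 5 overlapped vehicle day 3, and the day 7 libraries were the highest without separating VB6 from vehicle. Col4a2 followed the same order, with 130.2, 111 and 98.3 CPM in ES, 136, 139.7 and 139 CPM in VB6 day 3, and 157, 194 and 212 CPM in vehicle day 3. At day 5 Col4a2 had 562, 569 and 601 CPM in VB6 and 209, 186 and 172 CPM in vehicle, and at day 7 1060.1, 920.0 and 894 CPM in VB6 and 1085, 889 and 898 CPM in vehicle. In both genes the VB6 day 5 libraries lay above every vehicle day 5 library. Per length, the mean of Col4a1 in vehicle day 7 was 293 ± 44.2 TPM (SD, n = 3) and that of Col4a2 204 ± 27.1 TPM.

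Col18a1 behaved differently. It had 364, 306 and 289 CPM in ES, 419, 436 and 410.4 CPM in VB6 day 3, and 463, 579 and 550.2 CPM in vehicle day 3. At day 5 Col18a1 had 386, 407 and 466 CPM in VB6 and 187, 184 and 214 CPM in vehicle, and at day 7 438, 378 and 475 CPM in VB6 and 662, 493 and 575 CPM in vehicle. Its vehicle day 5 libraries were the lowest of all 21 and its vehicle day 7 libraries were above all VB6 day 7 libraries, while the VB6 groups stayed between 378 and 475 CPM at all 3 days. The X-linked chains Col4a5 and Col4a6, which form a trimer found in some specialised basement membranes, began near the detection limit. Col4a5 had 0.523, 0.469 and 0.629 CPM in ES, 1.42, 1.68 and 1.48 CPM in VB6 day 3, and 1.12, 1.26 and 1.37 CPM in vehicle day 3. At day 5 Col4a5 had 3.52, 5.03 and 6.87 CPM in VB6 and 4.04, 4.83 and 3.52 CPM in vehicle, and at day 7 21.8, 26.5 and 26.4 CPM in VB6 and 22.1, 20.5 and 21.5 CPM in vehicle. VB6 and vehicle overlapped at days 5 and 7, and both day 7 groups lay above every earlier library. Col4a6 had a mean of 0.0871 ± 0.0300 CPM in ES cells (SD, n = 3), 12.7 ± 2.60 CPM in VB6 day 7, with 11.6 ± 2.07 CPM in vehicle day 7. Col7a1, the chain of the anchoring fibrils below the epidermis, peaked in VB6 day 5 at 23.5 ± 2.99 CPM, against 10.6 ± 0.925 CPM in vehicle day 5, and had 11.8 ± 1.77 CPM in VB6 day 7, with 19.3 ± 2.19 CPM in vehicle day 7. The 3 further genes of the class, Col4a3, Col4a4 and Col15a1, stayed under 1 CPM in every group mean, the highest being 0.513 CPM for Col15a1 in VB6 day 7.

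Among the fibrillar genes, type 1 collagen showed the widest range. Col1a2 had 0.314, 0.678 and 0.105 CPM in ES, 1.66, 1.78 and 1.88 CPM in VB6 day 3, and 2.06, 2.04 and 1.84 CPM in vehicle day 3. At day 5 Col1a2 had 14, 15.3 and 18.9 CPM in VB6 and 4.85, 5.0 and 5.14 CPM in vehicle, and at day 7 287, 322 and 459 CPM in VB6 and 333, 254 and 370.0 CPM in vehicle. Groups of different days did not overlap, VB6 day 5 lay above vehicle day 5, and the day 7 groups overlapped. Its partner Col1a1 had 7.95, 5.68 and 5.76 CPM in ES, 5.28, 5.05 and 3.65 CPM in VB6 day 3, and 6.59, 5.59 and 5.26 CPM in vehicle day 3. At day 5 Col1a1 had 19.4, 25.2 and 28.9 CPM in VB6 and 6.74, 5.35 and 5.03 CPM in vehicle, and at day 7 127, 148 and 198 CPM in VB6 and 208, 149.6 and 204 CPM in vehicle. Unlike Col1a2, Col1a1 was already at 5.68 to 7.95 CPM in ES cells, and its vehicle day 5 libraries overlapped those of ES cells and vehicle day 3. Col5a1, a chain of type 5 collagen that joins type 1 fibrils and limits their width, had 47.3, 40.4 and 33.1 CPM in ES, 17.7, 17.6 and 16.3 CPM in VB6 day 3, and 22.4, 21.8 and 23.5 CPM in vehicle day 3. At day 5 Col5a1 had 67.5, 79.4 and 97.3 CPM in VB6 and 29.6, 28.1 and 29.2 CPM in vehicle, and at day 7 142, 143 and 199.8 CPM in VB6 and 253, 184 and 233 CPM in vehicle. Its lowest libraries were those of VB6 day 3 and it was higher in ES cells than at day 3. Col2a1, the main fibrillar chain of cartilage, had 10.7, 8.55 and 8.90 CPM in ES, 14, 12.6 and 12.4 CPM in VB6 day 3, and 13.9, 16 and 15.5 CPM in vehicle day 3. At day 5 Col2a1 had 42.2, 42.7 and 48.4 CPM in VB6 and 10.8, 10.1 and 12.8 CPM in vehicle, and at day 7 71.4, 69.5 and 112 CPM in VB6 and 144, 108 and 132 CPM in vehicle. In VB6 day 5 it lay above vehicle day 5, and in VB6 day 7 replicate 3 alone reached into the vehicle day 7 range.

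The remaining fibrillar genes were lower. Col5a2, the partner of Col5a1, averaged 0.418 ± 0.157 CPM in ES cells (SD, n = 3), 35.3 ± 6.53 CPM in VB6 day 7, with 33.3 ± 4.31 CPM in vehicle day 7. Col5a3, a further type 5 chain, ran the other way, with 28.3 ± 0.623 CPM in ES cells, 1.28 ± 0.630 CPM in VB6 day 7, with 1.51 ± 0.376 CPM in vehicle day 7. Col3a1, which forms homotrimers in skin and vessels, had 0 counts in all ES and VB6 day 3 libraries and reached 5.60, 9.04 and 11.5 CPM in VB6 day 7, against 4.76, 3.91 and 5.63 CPM in vehicle day 7. Col11a1, Col11a2 and Col27a1, chains best known from cartilage, peaked at 15.5 CPM in VB6 day 7, 4.68 CPM in vehicle day 7 and 7.51 CPM in VB6 day 7, each a group mean. Col24a1 was the gene just below the limit of description, at 0.899 CPM in VB6 day 7, and Col6a6 the one just above it, at 1.17 CPM in vehicle day 3. Beside these, the cartilage regulator Sox9 averaged 4.85 CPM in VB6 day 7, 4.20 CPM in vehicle day 7 and 0.679 CPM in ES cells, and the cartilage proteoglycan gene Acan had 0.831, 0.866 and 8.47 CPM in the same groups. The list of 5 cartilage markers that holds both summed to 17.7 ± 1.13, 18.7 ± 1.87 and 24.9 ± 1.15 CPM there.

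**Figure D3:**
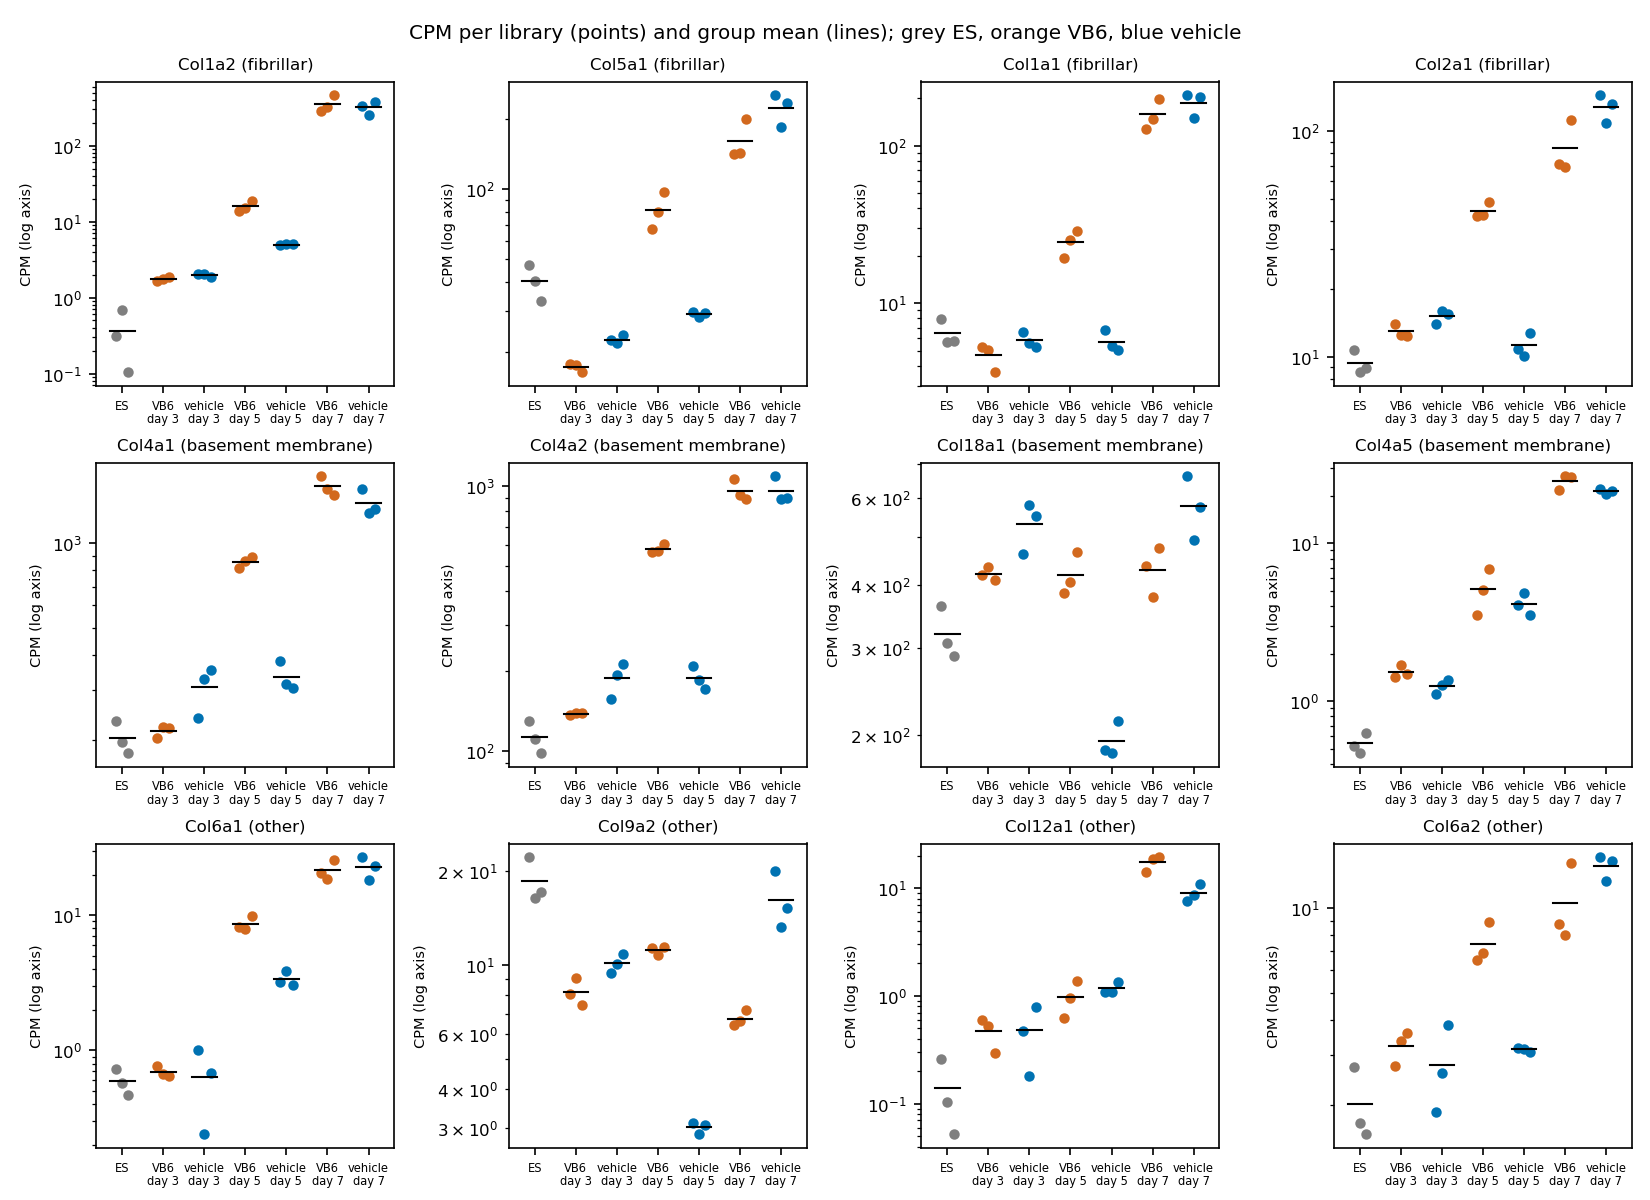
CPM on a log axis in each library (points) and group mean (lines) for the 4 genes of each class with the highest group mean; grey ES, orange VB6, blue vehicle. Most panels climb to day 7, Col18a1 and Col9a2 dip in vehicle day 5, and VB6 day 5 lies above vehicle day 5 in all panels except Col4a5 and Col12a1.

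Of the other types, the beaded filament chains Col6a1 and Col6a2 had their highest means at day 7. Col6a1 had 0.732, 0.574 and 0.471 CPM in ES, 0.772, 0.673 and 0.642 CPM in VB6 day 3, and 1.0, 0.240 and 0.684 CPM in vehicle day 3. At day 5 Col6a1 had 8.16, 7.91 and 9.93 CPM in VB6 and 3.24, 3.85 and 3.07 CPM in vehicle, and at day 7 20.6, 18.6 and 25.7 CPM in VB6 and 26.8, 18.2 and 23.3 CPM in vehicle. Its VB6 day 5 libraries were above those of vehicle day 5, and the day 7 groups overlapped. Col6a2 had 2.72, 1.72 and 1.57 CPM in ES, 2.73, 3.37 and 3.6 CPM in VB6 day 3, and 1.88, 2.59 and 3.84 CPM in vehicle day 3. At day 5 Col6a2 had 6.54, 6.90 and 8.87 CPM in VB6 and 3.18, 3.16 and 3.07 CPM in vehicle, and at day 7 8.79, 8.03 and 14.4 CPM in VB6 and 15.1, 12.4 and 14.7 CPM in vehicle. Again the day 5 groups were apart and the day 7 groups overlapped. Col6a3, the remaining chain of the classical type 6 trimer, stayed under 1 CPM in every group mean, with at most 0.639 CPM, in vehicle day 3. Its close relatives Col6a4, Col6a5 and Col6a6, which can take its place, were highest in ES cells or at day 3: Col6a4 averaged 6.41 ± 0.438 CPM in ES cells (SD, n = 3), 0.635 ± 0.0952 CPM in VB6 day 7, with 0.530 ± 0.0993 CPM in vehicle day 7, and Col6a5 3.64 ± 0.722 CPM in vehicle day 3 and 0.188 ± 0.0286 CPM in vehicle day 7.

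Col9a2, a chain of the type 9 collagen that decorates cartilage fibrils, had 22.2, 16.4 and 17.2 CPM in ES, 8.07, 9.09 and 7.46 CPM in VB6 day 3, and 9.47, 10.1 and 10.8 CPM in vehicle day 3. At day 5 Col9a2 had 11.3, 10.8 and 11.4 CPM in VB6 and 3.13, 2.88 and 3.07 CPM in vehicle, and at day 7 6.44, 6.63 and 7.16 CPM in VB6 and 20.1, 13.3 and 15.3 CPM in vehicle. It was lowest in vehicle day 5, and in VB6 day 7 every library was below every vehicle day 7 library. Its partner Col9a3 averaged 5.92 ± 0.364 CPM in ES cells (SD, n = 3), 1.64 ± 0.288 CPM in VB6 day 7, with 2.30 ± 0.231 CPM in vehicle day 7, while the remaining chain, Col9a1, had at most 0.222 CPM. Col12a1, which binds along type 1 fibrils, had 0.261, 0.104 and 0.0524 CPM in ES, 0.594, 0.529 and 0.296 CPM in VB6 day 3, and 0.470, 0.180 and 0.789 CPM in vehicle day 3. At day 5 Col12a1 had 0.620, 0.959 and 1.37 CPM in VB6 and 1.08, 1.09 and 1.35 CPM in vehicle, and at day 7 14.1, 18.7 and 19.3 CPM in VB6 and 7.58, 8.69 and 10.9 CPM in vehicle. Its day 7 groups stood apart from all earlier libraries, with VB6 above vehicle. Col8a1, a chain of the short networks below endothelia and in the cornea, had 0 counts in ES cells and reached 3.49, 5.62 and 6.16 CPM in VB6 day 7, against 2.18, 2.33 and 2.37 CPM in vehicle day 7. The membrane-spanning chains differed among themselves: Col13a1 and Col17a1, which belong to neuromuscular junctions and to hemidesmosomes, were highest in ES cells at 7.28 ± 1.06 and 6.92 ± 1.35 CPM, and Col23a1 was highest in VB6 day 5 at 10.9 ± 1.52 CPM. Col26a1 was highest in ES cells at 9.55 ± 0.999 CPM. Group means of Col16a1, Col20a1, Col22a1 and Col8a2 stayed between 0.376 and 5.69 CPM. Col10a1, Col14a1, Col19a1, Col25a1 and Col28a1, like Col6a3 and Col9a1, stayed under 1 CPM in every group mean.

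Partner chains did not keep a fixed proportion. The TPM of Col1a1 over that of Col1a2 was 2.02 ± 0.369 in VB6 day 3 (mean ± SD of 3 libraries) and 2.50 ± 0.364 in vehicle day 3, 1.2 ± 0.126 in VB6 day 5 and 0.799 ± 0.0847 in vehicle day 5, and 0.373 ± 0.0119 in VB6 day 7 and 0.512 ± 0.0333 in vehicle day 7. The libraries of the 3 days did not overlap. Type 1 collagen is known as a trimer with more alpha 1 than alpha 2 chains. Col4a1 over Col4a2 stayed within a narrower range, with group means of 1.43 in vehicle day 7 to 1.90 in ES cells, and 1.74 ± 0.00751 in VB6 day 7. Col5a1 over Col5a2 was 7.73 ± 0.728 in VB6 day 5 and 6.18 ± 0.695 in vehicle day 5, 4.92 ± 0.186 in VB6 day 7 and 5.62 ± 0.301 in vehicle day 7. Col6a1 over Col6a2 was 0.337 ± 0.0813 in ES cells, 1.17 ± 0.0918 in VB6 day 5, 1.09 ± 0.108 in vehicle day 5, 2.15 ± 0.333 in VB6 day 7 and 1.61 ± 0.162 in vehicle day 7. Col4a5 over Col4a6 at day 7 was 2.76 ± 0.370 in VB6 and 2.44 ± 0.413 in vehicle. Col8a1 over Col8a2 at day 7 was 1.5 ± 0.337 in VB6 and 0.668 ± 0.114 in vehicle, without overlap. No test was run on the ratios.

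**Figure D4:**
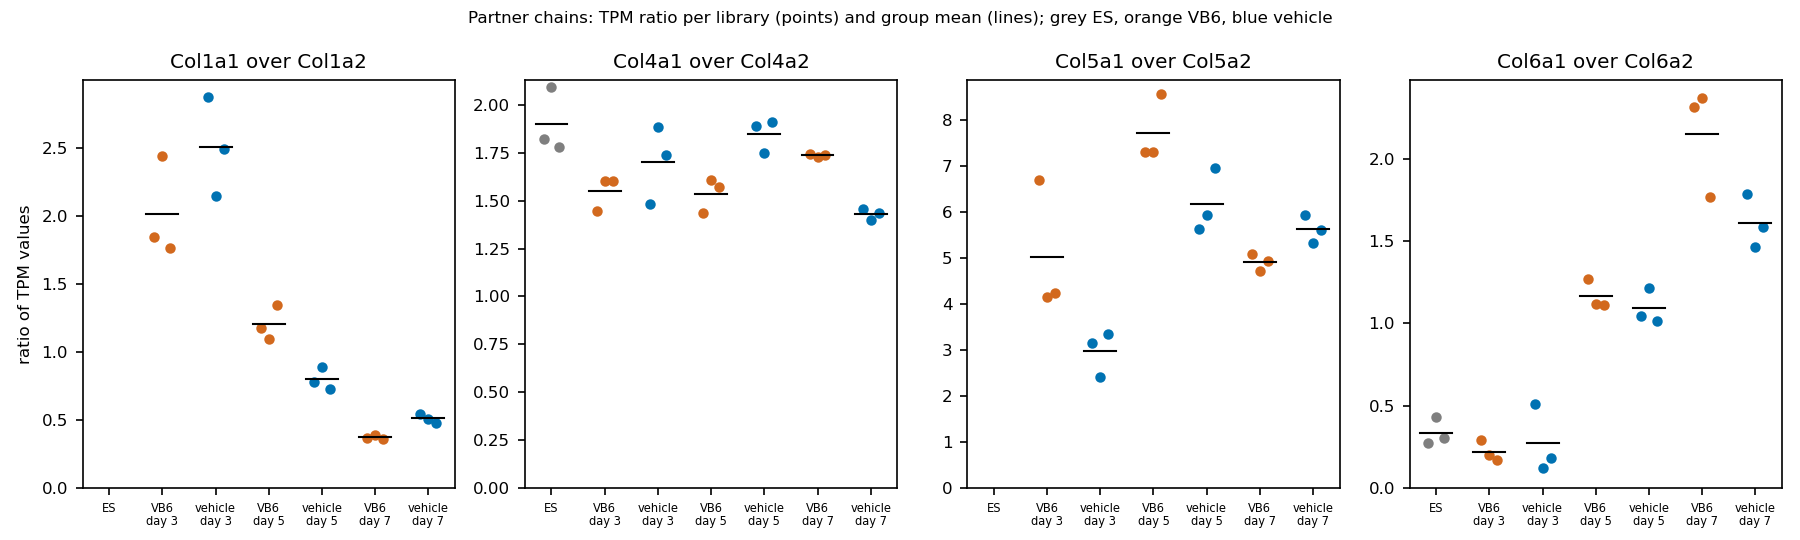
Ratio of the TPM values of partner chains in each library (points) with group means (lines); grey ES, orange VB6, blue vehicle. Groups where a partner had under 0.1 TPM in any library are left out. Col6a1 in vehicle day 3, which is shown, averaged only 0.207 ± 0.101 TPM. Col1a1 over Col1a2 is highest at day 3 and lowest at day 7 (0.373 ± 0.0119 in VB6, 0.512 ± 0.0333 in vehicle), whereas Col6a1 over Col6a2 is highest at day 7.

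The course without vitamin B6 was read from the vehicle groups. Genes were tested with edgeR's quasi-likelihood test over all 21 libraries and called at a Benjamini-Hochberg adjusted p under 0.05 over the 18901 genes tested, and fold changes are log2 values ± SE. Of the 44 genes, 36 passed the filter on low counts: 11 fibrillar, 6 basement membrane and 19 other. These are the 33 genes described plus Col24a1, Col14a1 and Col6a3. In vehicle day 3 against ES, 15 of the 36 were higher and 6 lower. Over all genes tested the called share was 64.9% (33.1% higher, 31.8% lower). The corrected fit gave 16 higher and 6 lower of 34 (all genes 70.5%). The basement membrane class moved one way, with 5 of 6 higher and 0 lower: Col4a6 by 2.41 ± 0.57 (adjusted p = 0.00071), Col4a5 by 1.2 ± 0.32 (adjusted p = 0.00209), Col4a2 by 0.73 ± 0.11 (adjusted p = 1.91e-06), Col18a1 by 0.73 ± 0.11 (adjusted p = 2.14e-06) and Col4a1 by 0.60 ± 0.11 (adjusted p = 8e-05). The fibrillar class split, with 5 higher and 2 lower of 11. Col5a2 (3.81 ± 0.26, adjusted p = 1.02e-11) and Col1a2 (2.41 ± 0.54, adjusted p = 0.000421) rose, and Col5a3 (-2.83 ± 0.18, adjusted p = 3.11e-12) and Col5a1 (-0.83 ± 0.15, adjusted p = 4.3e-05) fell. Col24a1, with 0 counts in ES cells, was at least 3.20-fold higher in vehicle day 3, taking 3 counts per library as the floor. The other class had 5 higher and 4 lower of 19, among them Col23a1 (2.41 ± 0.32, adjusted p = 7.42e-07) and Col12a1 (1.77 ± 0.61, adjusted p = 0.0141) higher and Col13a1 (-2.69 ± 0.28, adjusted p = 1.25e-08) and Col26a1 (-1.48 ± 0.18, adjusted p = 2.05e-07) lower. On TPM, tested with limma on log2(TPM + 0.5), 9 were higher and 7 lower (all genes 57.9%), and Col4a6, Col12a1, Col24a1 and Col27a1 were among the calls lost. The median log2 fold change of the 36 was 0.54, or 0.46 with genes at 0 set to their bound and 2 genes under the floor in both groups left out, against 0.011 over all genes tested.

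From day 3 to day 5 the vehicle course ran through the group with the shortest fragments. In vehicle day 5 against vehicle day 3, 7 of 36 genes were higher and 13 lower, where the share over all genes was 65.3% (31.9% higher, 33.4% lower). Corrected for GC content and length, 10 were higher and 12 lower of the 34 genes with both properties, where 65.9% of all genes were called, and on TPM 11 were higher and 9 lower (all genes 63.2%). Col4a5 (1.72 ± 0.22, adjusted p = 3.49e-07), Col4a6 (1.45 ± 0.33, adjusted p = 0.000477), Col1a2 (1.34 ± 0.31, adjusted p = 0.000591), Col6a1 (2.38 ± 0.30, adjusted p = 2.08e-07) and Col23a1 (1.46 ± 0.22, adjusted p = 4.11e-06) rose, and each was called in the corrected fit too. Col18a1 fell by 1.45 on the log2 scale (SE 0.11, adjusted p = 4.98e-11), and by 1.14 when corrected (adjusted p = 4.53e-15). Col6a5 (-3.07 ± 0.41, adjusted p = 5.38e-07), Col6a6 (-3.11 ± 0.57, adjusted p = 5.09e-05) and Col5a3 (-0.85 ± 0.23, adjusted p = 0.00236) also fell. Col2a1 was called lower at -0.43 ± 0.17 (adjusted p = 0.0295), was at -0.11 ± 0.13 (adjusted p = 0.47) when corrected and at 0.25 on log2 TPM, where the direction turned. Col5a1 rose by 0.36 ± 0.16 (adjusted p = 0.0459) and lost its call when any 1 of the 6 libraries was left out.

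In vehicle day 7 against vehicle day 5, 26 of 36 genes were higher and 3 lower, where 66.3% of all genes were called (35.2% higher, 31.1% lower), the corrected fit gave 25 higher and 5 lower of 34 (all genes 61.7%), and TPM gave 20 and 4 of 36 (all genes 60.9%). All 6 basement membrane genes tested rose, though Col7a1 was at 0.27 when corrected and turned direction on TPM (-0.33), led by Col4a6 (3.09 ± 0.21, adjusted p = 1.31e-11) and Col4a5 (2.37 ± 0.16, adjusted p = 6.94e-12), with Col4a2 at 2.34 ± 0.11 (adjusted p = 1.48e-14). Of 11 fibrillar genes 9 rose and 0 fell. Col1a2 rose by 5.99 ± 0.19 (adjusted p = 6.33e-17), Col3a1 by 5.58 ± 0.51 (adjusted p = 9.86e-09), Col1a1 by 5.03 ± 0.19 (adjusted p = 9.28e-16) and Col2a1 by 3.51 ± 0.15 (adjusted p = 9.1e-15). In the other class 11 rose and 3 fell of 19, with Col8a2 (2.99 ± 0.32, adjusted p = 2.02e-08) and Col12a1 (2.95 ± 0.26, adjusted p = 8.64e-10) among the highest and Col17a1 (-0.85 ± 0.36, adjusted p = 0.0442) and Col6a4 (-0.80 ± 0.34, adjusted p = 0.0416) among those lower. Col8a1, also called, was 41.1 times (95% exact counting interval 13.7 to 202, 121 counts against 3) its level in vehicle day 5. Medians were 2.62 for fibrillar, 2.19 for basement membrane and 1.17 for other genes, against 0.021 for all genes tested. The calls of Col17a1 and Col6a4 were lost without a filter and when any of 4 single libraries was left out, among them vehicle day 5 replicate 3 and vehicle day 7 replicates 1 and 3.

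Vehicle day 7 against vehicle day 3 uses neither of the groups with short fragments. There 23 of 36 genes were higher and 8 lower (all genes 67.4%, of which 34.3% higher and 33.1% lower), and the corrected fit also gave 23 and 8, of 34 (all genes 73.0%). Of the 8 lower genes, the 6 that had a value in the corrected fit were called lower again, and Col18a1 and Col26a1 were added. On TPM 23 were higher and 5 lower (all genes 61.9%). Fibrillar genes were higher in 9 of 11, with Col1a2 at 7.33 ± 0.21 (adjusted p = 1.12e-18), and Col1a1 at 5.01 ± 0.19 (adjusted p = 1.52e-16), and Col5a3 was lower at -1.39 ± 0.24 (adjusted p = 2.34e-05). Basement membrane genes were higher in 5 of 6, with Col4a6 at 4.54 ± 0.25 (adjusted p = 1.27e-13), Col4a5 at 4.08 ± 0.19 (adjusted p = 4.13e-15), Col4a2 at 2.35 ± 0.11 (adjusted p = 3.21e-15) and Col4a1 at 2.17 ± 0.12 (adjusted p = 8.31e-14). Col18a1 was not called (0.12 ± 0.11, adjusted p = 0.323), but the corrected fit called it lower. The other class split into 9 higher, such as Col6a1 (5.13 ± 0.24, adjusted p = 5.13e-15), and 7 lower, such as Col6a5 (-4.22 ± 0.47, adjusted p = 3e-08) and Col6a6 (-3.30 ± 0.59, adjusted p = 3.21e-05). The called genes Col3a1 and Col8a1 had few counts in vehicle day 3: Col3a1 was 130.5 times (95% exact counting interval 35.7 to 1083, 253 counts against 2) its level there, and Col8a1 41.6 times (95% exact counting interval 13.9 to 204, 121 counts against 3).

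Markers of several cell types moved with the collagens, and their part in these results was not tested. The summed level of 10 parietal endoderm markers, which include the laminin genes Lama1, Lamb1 and Lamc1 and Sparc, was 969.8 ± 55.3 CPM in ES cells, 2488 ± 35.6 CPM in VB6 day 5, 1523 ± 80.6 CPM in vehicle day 5, 3907 ± 282 CPM in VB6 day 7, with 3074 ± 132 CPM in vehicle day 7, and all 10 reached a mean of 1 CPM at day 7. In vehicle day 3 the sum was 965 ± 82.6 CPM. In vehicle day 7 against vehicle day 3, 8 of the 10 were called higher and 2 lower, in the corrected fit too. Over all genes tested, 34.3% were called higher and 33.1% lower in the uncorrected fit. Lama1, a member of this list, had 658 ± 51.7 CPM in VB6 day 7, with 452 ± 27.9 CPM in vehicle day 7, against 139 ± 14.7 CPM in ES cells. The 6 visceral endoderm markers summed to 5583 ± 613 CPM in VB6 day 7, 3868 ± 159.6 CPM in vehicle day 7 and 32.0 ± 3.59 CPM in ES cells. The 5 smooth muscle markers summed to 447 ± 36.2, 472 ± 62.8 and 5.58 ± 0.965 CPM in the same groups. The 10 fibroblast and mesenchyme markers summed to 204 ± 4.38, 141 ± 3.67 and 71.0 ± 6.37 CPM there. Within that list Pdgfra had 130.5 CPM in VB6 day 7, with 90.2 CPM in vehicle day 7 and Postn 30.4 ± 7.17 and 10.4 ± 0.979 CPM, while the defining genes of mature fibroblasts Dcn (0.0541 and 0.250 CPM) and Lum (0.338 and 0.134 CPM) were under 1 CPM. The 5 endothelial markers summed to 13 ± 1.76 CPM in VB6 day 7, 8.93 ± 0.127 CPM in vehicle day 7 and 112 ± 4.64 CPM in ES cells, most of it Pecam1 in ES cells (103 ± 4.75 CPM). Kdr had 4.82 ± 1.25 CPM in VB6 day 7, 3.10 ± 0.620 CPM in vehicle day 7 and 0.575 ± 0.0892 CPM in ES cells, and Cdh5 stayed under 1 CPM in every group mean. The 4 neural markers summed to 142 ± 16.1 CPM in VB6 day 5, 88.8 ± 9.53 CPM in vehicle day 5, 72.6 ± 9.85 CPM in VB6 day 7, 118 ± 6.28 CPM in vehicle day 7 and 46.1 ± 3.94 CPM in ES cells. The 5 ES cell markers, against which the label of the ES group but not the name of the line can be checked, summed to 196 ± 22.4 CPM in VB6 day 7, 263 ± 21 CPM in vehicle day 7 and 2635 ± 174 CPM in ES cells.

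The course with vitamin B6 was read from the VB6 groups. In VB6 day 5 against VB6 day 3, 22 of 36 genes were higher and 7 lower, where the share over all genes was 56.2% (29.9% higher, 26.4% lower), and the corrected fit gave 19 higher and 8 lower of 34 (all genes 60.5%). On TPM 18 were higher and 3 lower (all genes 48.7%). Of 11 fibrillar genes 9 were higher, among them Col1a2 (3.16 ± 0.25, adjusted p = 2.76e-10), Col1a1 (2.40 ± 0.21, adjusted p = 9.79e-10) and Col5a1 (2.24 ± 0.15, adjusted p = 1.41e-11). Col3a1, with 0 counts in VB6 day 3, was at least 1.73-fold higher in VB6 day 5, taking 3 counts per library as the floor. Col8a1 was 13.2 times (95% exact counting interval 1.95 to 564, 12 counts against 1) its level in VB6 day 3. With Col3a1 at its bound the fibrillar median was 1.32, and 1.78 as fitted. Of 6 basement membrane genes 5 were higher, led by Col4a6 (2.30 ± 0.29, adjusted p = 3.82e-07) and Col4a2 (2.06 ± 0.11, adjusted p = 1.14e-13), with Col4a1 at 1.99 ± 0.12 (adjusted p = 1.19e-12). Col18a1 was not called without correction and was called lower in the corrected fit. The other class had 8 higher, such as Col6a1 (3.63 ± 0.25, adjusted p = 1.96e-11), and 7 lower, such as Col6a6 (-3.46 ± 0.61, adjusted p = 4.25e-05) and Col6a5 (-1.80 ± 0.40, adjusted p = 0.000555). Col9a2, called higher (0.44 ± 0.14, adjusted p = 0.00833), turned to -0.032 in the corrected fit. This comparison uses neither of the groups with short fragments.

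In VB6 day 7 against VB6 day 5, 17 genes were higher and 9 lower of 36 (all genes 54.5%, 27.3% in each direction). The corrected fit gave 19 higher and 7 lower of 34 (all genes 56.0%), and TPM 18 higher and 4 lower (all genes 55.0%). Col3a1 (5.05 ± 0.41, adjusted p = 4.17e-09), Col8a1 (4.50 ± 0.40, adjusted p = 5.65e-09), Col1a2 (4.47 ± 0.16, adjusted p = 1.15e-15) and Col12a1 (4.15 ± 0.26, adjusted p = 7.62e-12) rose most, and Col4a6 (2.36 ± 0.19, adjusted p = 6.01e-10) and Col4a5 (2.29 ± 0.15, adjusted p = 1.85e-11) led the basement membrane class. Col7a1 (-0.99 ± 0.12, adjusted p = 3.12e-07), Col5a3 (-1.57 ± 0.25, adjusted p = 1.33e-05), Col17a1 (-1.68 ± 0.36, adjusted p = 0.000394) and Col6a4 (-1.51 ± 0.29, adjusted p = 0.000129) fell. Medians were 1.2 for fibrillar, 0.81 for basement membrane and -0.22 for other genes, against -0.0077 for all genes tested. On TPM, Col7a1 was no longer called (-0.18 ± 0.28, adjusted p = 0.622). Col18a1, not called in the uncorrected fit, was called higher in the corrected fit and on TPM. A mean at day 5 below both day 3 and day 7 was found for 13 of the 33 described genes in vehicle and for 3 of 33 in VB6. Both counts include a group with short fragments.

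Few collagen chain genes were called at day 3. Against vehicle day 3, 0 of 36 genes were higher and 3 lower in VB6 day 3, where 4.26% of all genes were called (1.49% higher, 2.77% lower). At an unadjusted p under 0.05 the counts were 0 higher and 11 lower, where 19.8% of all genes were past that limit. Col5a2 had 3.44 ± 0.569 CPM in VB6 day 3, with 5.99 ± 0.853 CPM in vehicle day 3 (SD, n = 3 each), a change of -0.79 ± 0.18 (adjusted p = 0.0128). Col4a1 changed by -0.51 ± 0.11 (adjusted p = 0.013) and Col4a2 by -0.44 ± 0.10 (adjusted p = 0.0177). These calls rested on single libraries: none was left without VB6 day 3 replicate 1 or without vehicle day 3 replicate 2, 1 was left without VB6 day 3 replicate 3 or without vehicle day 3 replicate 3, 2 were left without VB6 day 3 replicate 2, and 0 were made on TPM with limma (all genes 1.34%), while DESeq2 called 4. Corrected for GC content and length, 2 of 34 were lower (all genes 7.11%). Of the 33 genes described, 26 had a log2 fold change under 0, with a median over the 36 tested of -0.29, against -0.012 over all genes tested. Summed over all 44 genes, collagens had 883 ± 23.3 CPM in VB6 day 3, with 1154 ± 152 CPM in vehicle day 3, and the groups did not overlap.

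At day 5 most of the collagen chain genes tested were higher with vitamin B6. In VB6 day 5 against vehicle day 5, 22 of 36 genes were higher and 0 lower, where 56.7% of all genes were called, 31.2% of them higher and 25.5% lower as shares of the genes tested. All 3 classes took part, with 7 of 11 fibrillar, 5 of 6 basement membrane and 10 of 19 other genes. Col1a1 had 24.5 ± 4.77 CPM in VB6 day 5, with 5.71 ± 0.910 CPM in vehicle day 5, a change of 2.10 ± 0.20 (adjusted p = 8.49e-09). Col11a2 (2.0 ± 0.32, adjusted p = 1.09e-05), Col2a1 (1.98 ± 0.16, adjusted p = 4.25e-10), Col1a2 (1.68 ± 0.21, adjusted p = 4.38e-07) and Col5a1 (1.49 ± 0.14, adjusted p = 9.26e-09) rose in the fibrillar class. In the basement membrane class Col4a2 rose by 1.61 ± 0.10 (adjusted p = 2.75e-11), Col4a1 by 1.35 ± 0.11 (adjusted p = 1.27e-09), Col7a1 by 1.14 ± 0.12 (adjusted p = 4.01e-08) and Col18a1 by 1.11 ± 0.11 (adjusted p = 9.23e-09), while Col4a5 was at 0.31 ± 0.17 (adjusted p = 0.142). Of the other class, Col9a2 (1.88 ± 0.16, adjusted p = 1.16e-09), Col8a2 (1.44 ± 0.37, adjusted p = 0.00177), Col6a1 (1.35 ± 0.19, adjusted p = 2.47e-06) and Col6a2 (1.24 ± 0.23, adjusted p = 8.78e-05) rose. Called changes ran from 0.68 to 2.10 in the fibrillar, from 0.87 to 1.61 in the basement membrane and from 0.80 to 1.88 in the other class. The median over the 36 genes was 0.92 and that of all genes tested 0.053.

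Vehicle day 5 held the shortest fragments. The correction for GC content and length left 18 of 34 genes higher and 0 lower, where 39.8% of all genes were called. Of the 22 genes, 16 were called again, and Col5a3, Col9a3, Col16a1, Col20a1, Col22a1 and Col26a1 were not, while Col8a1 and Col11a1 were added. Corrected changes were 1.84 ± 0.19 for Col1a1, 1.94 ± 0.23 for Col1a2, 1.03 ± 0.089 for Col4a1, 0.99 ± 0.077 for Col4a2, 0.95 ± 0.12 for Col9a2 and 0.45 ± 0.056 for Col18a1. They were 1.09 ± 0.31 for Col11a2, 0.93 ± 0.36 for Col8a2, 0.55 ± 0.094 for Col7a1, 0.83 ± 0.17 for Col6a1, 0.76 ± 0.20 for Col6a2, 1.32 ± 0.12 for Col2a1 and 1.11 ± 0.11 for Col5a1. On log2 TPM with limma 13 genes were higher and 0 lower (all genes 51.0%), on a scale where the median of all genes moved to -0.16. On that scale Col7a1 turned direction, at -0.20 (adjusted p = 0.589). No collagen chain gene was called lower in VB6 day 5 under any setting run for this comparison. Of the marker genes tested, those called higher in VB6 day 5 were 7 of 10 for parietal endoderm, 4 of 6 for visceral endoderm, 4 of 4 for smooth muscle, 3 of 4 for neural cells, 4 of 5 for ES cells, 2 of 9 for fibroblasts and mesenchyme, 1 of 5 for cartilage and 0 of 4 for endothelium, and 1 ES cell marker was lower. Beside these counts, 31.2% of all genes were called higher and 25.5% lower. After correction 6 of 10 parietal endoderm, 6 of 6 visceral endoderm, 2 of 3 smooth muscle, 1 of 4 neural and 2 of 5 ES cell markers were higher. So were 1 of 9 fibroblast and mesenchyme, 1 of 5 cartilage and 1 of 3 endothelial markers. In that fit 1 parietal endoderm, 1 ES cell and 1 fibroblast and mesenchyme marker were lower, where 39.8% of all genes were called. Their part in the collagen values was not tested.

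At day 7 the effect was mixed. In VB6 day 7 against vehicle day 7, 4 of 36 genes were higher and 8 lower, where 36.5% of all genes were called (18.6% higher, 17.9% lower). The corrected fit gave 4 higher and 5 lower of 34 (all genes 27.3%) and TPM 7 higher and 1 lower (all genes 42.7%), on a scale where the median of all genes was 0.23. The 4 higher genes were Col8a1 (1.16 ± 0.29, adjusted p = 0.00348), Col12a1 (0.94 ± 0.20, adjusted p = 0.000613), Col3a1 (0.87 ± 0.28, adjusted p = 0.019) and Col11a1 (0.52 ± 0.14, adjusted p = 0.00534). Col12a1 had 17.4 ± 2.81 CPM in VB6 day 7, with 9.07 ± 1.71 CPM in vehicle day 7. Corrected, Col8a1 and Col12a1 were still called, and Col3a1 (0.68 ± 0.27, adjusted p = 0.0642) and Col11a1 (0.25 ± 0.14, adjusted p = 0.185) were not. Of the 8 lower genes, Col9a2 moved most, with 6.74 ± 0.376 CPM in VB6 day 7, with 16.2 ± 3.49 CPM in vehicle day 7, a change of -1.26 ± 0.14 (adjusted p = 2.82e-07). It was called lower in the corrected fit (-0.77 ± 0.10, adjusted p = 3.96e-06) and on TPM as well. Col7a1 (-0.71 ± 0.12, adjusted p = 7.7e-05), Col2a1 (-0.60 ± 0.13, adjusted p = 0.00077), Col18a1 (-0.42 ± 0.11, adjusted p = 0.00281) and Col5a1 (-0.47 ± 0.13, adjusted p = 0.00653) were called lower in the corrected fit and not on TPM, where Col5a1 turned direction (0.21, adjusted p = 0.365). Their corrected changes were -0.48 ± 0.094 for Col7a1, -0.37 ± 0.095 for Col2a1, -0.18 ± 0.054 for Col18a1 and -0.41 ± 0.094 for Col5a1. Col11a2 (-0.79 ± 0.27, adjusted p = 0.0233), Col16a1 (-0.75 ± 0.22, adjusted p = 0.00834) and Col22a1 (-0.57 ± 0.20, adjusted p = 0.0252) were called lower in neither. In the same comparison 4 of 10 parietal endoderm markers were called higher and 0 lower, 0 of 4 neural markers higher and 3 lower, 1 of 4 smooth muscle markers higher and 2 lower, 3 of 6 visceral endoderm markers higher and 2 lower and 3 of 9 fibroblast and mesenchyme markers higher and 2 lower. Corrected, 8 of 10 parietal endoderm, 2 of 6 visceral endoderm and 4 of 9 fibroblast and mesenchyme markers were higher, with 0 lower in each list. In that fit 0 of 4 neural markers were higher and 2 lower, and 1 of 3 smooth muscle markers was higher and 2 lower. Their part in the collagen values was not tested.

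The chains of type 1 collagen and of the common type 4 trimer were not called at day 7 without correction. Col1a1 was at -0.25 ± 0.14 (adjusted p = 0.192), Col1a2 at 0.16 ± 0.13 (adjusted p = 0.38), Col4a1 at 0.20 ± 0.11 (adjusted p = 0.175) and Col4a2 at 0.0011 ± 0.10 (adjusted p = 0.999), and the last 2 were called higher after correction, at 0.24 ± 0.087 (adjusted p = 0.0398) and 0.22 ± 0.074 (adjusted p = 0.0299). Summed over all 44 genes, collagens had 3946 ± 175 CPM in VB6 day 7, with 3987 ± 462 CPM in vehicle day 7, with overlapping libraries. At day 5 they had 2141 ± 136 CPM in VB6 and 837 ± 50.9 CPM in vehicle, without overlap. The picture depended on the scale. On TPM the sums were 1163 ± 56.2 in VB6 day 7 and 948 ± 134 in vehicle day 7. At day 5 they were 511 ± 51.6 TPM in VB6 and 263 ± 21.5 TPM in vehicle. VB6 over vehicle was 0.9895 by CPM and 1.23 by TPM at day 7, and 2.56 and 1.95 at day 5. A test of whether the VB6 effect differs between the 3 days called 23 of 36 genes, where 60.0% of all genes were called: 8 of 11 fibrillar, 4 of 6 basement membrane and 11 of 19 other genes. Corrected for GC content and length it called 17 of 34, where 46.4% of all genes were called, and on TPM 16 of 36 (all genes 58.9%). Of the 33 genes described, 19 had a log2 fold change above 0 at day 5 and below it at day 7, a count that draws on both groups with short fragments.

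**Figure D5:**
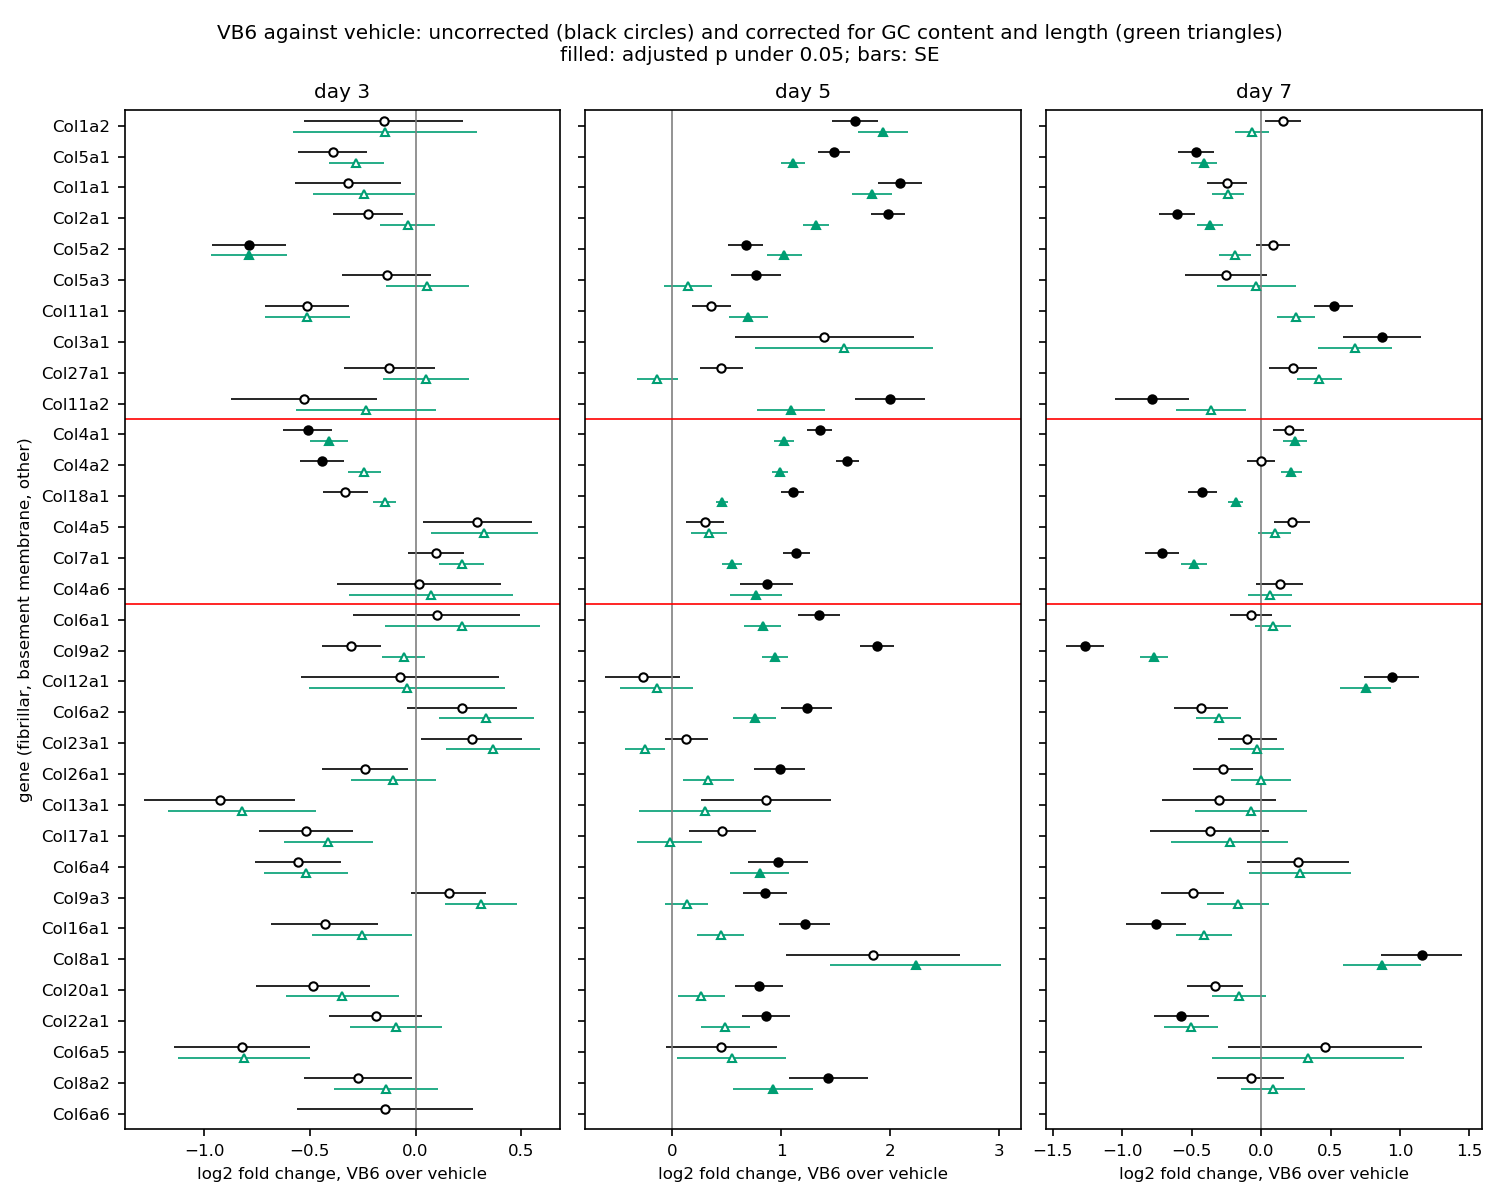
Log2 fold change of VB6 over vehicle at days 3, 5 and 7 for the 33 described genes, uncorrected (black circles) and corrected for GC content and length (green triangles); filled symbols have an adjusted p under 0.05, bars are SE, and genes under the count floor in both groups are left out. Day 5 values lie mostly to the right of 0, with Col1a1 at 2.10 uncorrected and 1.84 corrected, and day 7 values on both sides.

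Genes that fold, trim, crosslink or bind collagen were followed as a list of 54, of which 44 were tested. In vehicle day 7 against vehicle day 3, 30 higher and 4 lower of 44 were called (all genes 67.4%, of which 34.3% higher and 33.1% lower). In VB6 day 7 against VB6 day 5 it was 31 higher and 6 lower of 44 (all genes 54.5%). The corrected fit gave 29 higher and 6 lower of 40 there (all genes 56.0%). In vehicle day 3 against ES it was 10 higher and 21 lower of 44 (all genes 64.9%, of which 33.1% higher and 31.8% lower). Serpinh1, the collagen chaperone HSP47, averaged 99.6 ± 2.46 CPM in ES cells, 307 ± 14.5 CPM in VB6 day 5, 129 ± 6.95 CPM in vehicle day 5, 500.5 ± 32.5 CPM in VB6 day 7, with 561 ± 49.0 CPM in vehicle day 7, and rose by 2.43 ± 0.077 (adjusted p = 4.86e-18) in vehicle day 7 against vehicle day 3. Loxl2, a crosslinking enzyme (1.76 ± 0.087, adjusted p = 1.49e-14), Pxdn, which crosslinks type 4 collagen (1.21 ± 0.06, adjusted p = 1.65e-14), and the prolyl 3-hydroxylase P3h2 (2.44 ± 0.11, adjusted p = 2.15e-15) rose in the same comparison. Other members were highest in ES cells: Pcolce, which enhances the trimming of fibrillar procollagen, had 6.84 ± 0.288 CPM in vehicle day 3 and 116 ± 10.8 CPM in ES cells (-4.09 ± 0.11, adjusted p = 3.93e-19), and the lysyl hydroxylase Plod1 13.7 ± 2.16 and 62.6 ± 9.82 CPM (-2.19 ± 0.12, adjusted p = 1.88e-13). By role, 17 of 21 folding and modifying genes tested rose and 0 fell in vehicle day 7 against vehicle day 3, 6 of 13 trimming and crosslinking genes rose and 3 fell, 4 of 4 degradation genes rose, and 3 of 6 receptor genes rose and 1 fell. Beside these counts, 34.3% of all genes were called higher and 33.1% lower. Itgb1, the beta chain of the collagen-binding integrins, averaged 641 ± 28.2 CPM in VB6 day 7, 519 ± 41.0 CPM in vehicle day 7 and 228 ± 17.3 CPM in ES cells, and the uptake receptor gene Mrc2 had 48.8 ± 5.92, 51.3 ± 7.46 and 8.12 ± 1.15 CPM in these groups. Lox, the classical crosslinking enzyme of fibrils, had at most 1.33 CPM as a group mean, in VB6 day 7, and the fibril-degrading collagenase Mmp13 was under 1 CPM.

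With vitamin B6 the same list gave 1 higher and 5 lower of 44 at day 3 (all genes 4.26%). It gave 25 higher and 3 lower of 44 at day 5 (all genes 56.7%) and 10 higher and 3 lower of 44 at day 7 (all genes 36.5%). In the corrected fit the counts were 1 higher and 6 lower of 40 at day 3 (all genes 7.11%). At day 5 they were 18 higher and 1 lower of 40 (all genes 39.8%), and at day 7 11 higher and 3 lower of 40 (all genes 27.3%). At day 5 Serpinh1 rose by 1.25 ± 0.074 (adjusted p = 6.53e-12), and by 0.59 when corrected, and the collagen receptor Ddr1 by 1.04 ± 0.11 (adjusted p = 3.97e-08), corrected 0.35. At day 7 the lysyl hydroxylase Plod2 (0.70 ± 0.08, adjusted p = 5.95e-07), P3h2 (0.69 ± 0.089, adjusted p = 2.38e-06) and the coat protein gene Sec23a, which serves procollagen export (0.53 ± 0.071, adjusted p = 3.78e-06), rose, and Ppib, the folding enzyme cyclophilin B, fell (-0.32 ± 0.054, adjusted p = 5.85e-05), and was at -0.00015 when corrected. The corrected changes of the 3 that rose were 0.42 for Plod2, 0.64 for P3h2 and 0.28 for Sec23a. At day 5 the means in VB6 and vehicle were 211 and 289 CPM for Plod2 and 108 and 156 CPM for Sec23a. They were 12.2 and 11.7 CPM for P3h2 and 166 and 111 CPM for Ppib. Vehicle day 5 and VB6 day 7 are the groups with short fragments, whose part in these values was not tested. At day 3 Loxl2 (-0.35 ± 0.09, adjusted p = 0.0265) and the prolyl 3-hydroxylase P3h1 (-0.40 ± 0.11, adjusted p = 0.0392) fell. The day 3 count of 6 was 0 without VB6 day 3 replicate 1, without VB6 day 3 replicate 3, without vehicle day 3 replicate 3 or without the groups with short fragments. It was 1 without vehicle day 3 replicate 2 and 3 without VB6 day 3 replicate 2. Percentages of all genes called in these comparisons are those given above for the collagen chains.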

How the data were processed

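Expected counts per gene, TPM and FPKM of 21 RNA libraries were used as the authors deposited them. The genome build was mm10 per the submitters' processing notes. The labels and headers do not name the aligner, the counting tool or a strand setting. FPKM, deposited by the authors, served with the counts to derive an effective length per gene. That length gave the implied fragment length and was the length used in the correction for GC content and length. Of the 33 genes described, 7 share exon bases with a gene on the opposite strand, in no case over 10% of them.

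The collagen genes and the marker and maturation lists were chosen with earlier results of these data known. Values in every library are given for the 4 genes per class with the highest group mean, and per comparison mainly the called genes with the 2 highest and 2 lowest fold changes of each class are named.

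Expected counts were rounded, filtered with filterByExpr and tested over all 7 groups with edgeR 4.0.16 (R 4.3.3), TMM scaling, group means and the quasi-likelihood test with Benjamini-Hochberg adjustment at 0.05, over 18901 genes. Fold changes are log2 values with the SE derived from F. To correct for GC content and length, a robust spline (5 degrees of freedom per property) was fitted to each library. The fit used tested genes with both properties and a mean of at least 1 CPM over all libraries. It was applied through edgeR's offsets to all 16772 tested genes with both properties, including those below that level. Alternatives were DESeq2 1.42.0, edgeR with the size factors of DESeq2, a fit without a filter or with a stricter one (1 CPM in 3 libraries), only the libraries compared, a replicate block, limma 3.58.1 on log2(TPM + 0.5), leaving out each library and, chosen after seeing the data, leaving out both groups with short fragments. The procedure was tested on simulated data without a bias by GC content or length, so that test cannot show how well the correction works. Depth per library, 15882380 to 21629730 counts, limits the lowest genes.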

Additional observations from a re-analysis of the deposited data

Results flagged for a closer look

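Differences of the VB6 effect between days 3, 5 and 7 were tested with edgeR's F test, adjusted over all 18901 genes. It tested jointly the day 5 effect minus the day 3 effect and the day 7 effect minus the day 3 effect. It called 23 of the 36 collagen chain genes tested, beside 60.0% of all genes. Both vehicle day 5 and VB6 day 7, the groups with short fragments, enter the test.

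Among basement membrane genes the adjusted p was 1.31e-10 for Col4a2, 4.6e-09 for Col4a1, 6.8e-09 for Col18a1 and 1.65e-08 for Col7a1. Col4a2 had log2 fold changes of -0.44, 1.61 and 0.0011 at days 3, 5 and 7, and Col18a1 of -0.33, 1.11 and -0.42. Among fibrillar genes it was 6.9e-10 for Col2a1, 5.59e-08 for Col1a1, 8.8e-06 for Col11a2, 4.77e-05 for Col5a2 and 0.00249 for Col11a1, and likewise 1.25e-08 for Col5a1, 3.78e-05 for Col1a2 and 0.0201 for Col5a3. Col2a1 had log2 fold changes of -0.23, 1.98 and -0.60, and Col11a1 of -0.51, 0.36 and 0.52. Among the other genes it was 7.93e-11 for Col9a2, 2.45e-05 for Col16a1, 0.00516 for Col8a2 and 0.0197 for Col12a1. Among the type 6 chains it was 0.0001 for Col6a1, 0.000232 for Col6a2 and 0.00158 for Col6a4, and it was 0.000752 for Col22a1, 0.00166 for Col26a1, 0.00197 for Col9a3 and 0.00227 for Col20a1. Col9a2 had log2 fold changes of -0.30, 1.88 and -1.26, and Col12a1 of -0.073, -0.27 and 0.94. After the correction for GC content and length 17 of the 23 were called again, and Col8a2 (adjusted p = 0.121), Col12a1 (adjusted p = 0.0928), Col5a3, Col9a3, Col20a1 and Col26a1 were not.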

How the results depend on the processing

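The day 3 count of 3 genes, VB6 against vehicle, moved to 5 without a filter, 6 with only the libraries compared and 0 with limma on log2 TPM, and ranged from 0 to 4 when single libraries were left out. Without VB6 day 3 replicate 3 or vehicle day 3 replicate 3 it was 1. The day 5 count of 22 was 13 with limma on log2 TPM. On TPM 4 fold changes turned direction, with log2 values of -0.20 for Col7a1 in VB6 day 5 against vehicle day 5, 0.21 for Col5a1 in VB6 day 7 against vehicle day 7, 0.25 for Col2a1 in vehicle day 5 against vehicle day 3 and -0.33 for Col7a1 in vehicle day 7 against vehicle day 5. Col9a2 in VB6 day 5 against VB6 day 3 turned to -0.032 with the correction for GC content and length and -0.034 with the replicate block added. The day 3 count of 6 maturation and receptor genes, VB6 against vehicle, moved to 3 with DESeq2 size factors, 10 without a filter, 10 with only the libraries compared, 1 on TPM and 0 without the groups with short fragments, and ranged from 0 to 6 when single libraries were left out, and their day 7 count of 13 was 21 on TPM. The cause of these moves was not tested. The other totals of genes called in both directions together stayed within 1.5 times under all settings run. By direction, TPM moved the collagen chain genes to 7 higher and 1 lower (4 and 8 on counts) in VB6 day 7 against vehicle day 7, 3 lower (7) in VB6 day 5 against VB6 day 3, 4 lower (9) in VB6 day 7 against VB6 day 5, 5 lower (8) in vehicle day 7 against vehicle day 3, 11 higher (7) in vehicle day 5 against vehicle day 3 and 9 higher (15) in vehicle day 3 against ES. The correction gave 5 lower in VB6 day 7 against vehicle day 7 (8 uncorrected) and in vehicle day 7 against vehicle day 5 (3 uncorrected), where DESeq2 also gave 5 and the fits without vehicle day 5 replicate 3 or vehicle day 7 replicate 3 gave 1. For the maturation and receptor list, TPM gave 12 higher and 8 lower at day 5 (25 and 3 on counts) and 19 higher at day 7 (10), VB6 against vehicle, and 1 lower (4) in vehicle day 7 against vehicle day 3 and 3 lower (6) in VB6 day 7 against VB6 day 5, and its 3 lower genes at day 7 became 6 without VB6 day 7 replicate 3 and 5 without vehicle day 7 replicate 2. On TPM the share of calls of all genes that were higher was 82.7% in VB6 against vehicle at day 7 (51.1% on counts) and 31.3% at day 5 (55.1%), with medians of all genes of 0.23 and -0.16. Of 1757 fold changes of called genes under other settings, 1657 kept call and direction, 94 lost the call and 6 turned, and of 1122 with a library left out 67 lost the call. For the maturation and receptor list the settings were applied after seeing the data. Same-numbered libraries were not paired by the labels, their deviations correlated between -0.236 and 0.147, and the replicate block gave 3, 22 and 12 genes in VB6 against vehicle at days 3, 5 and 7. Depth limits genes near 3 counts per library, such as Col3a1 and Col8a1 before day 7.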
